A study of Mus musculus with 8 samples.

Results

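The genes described here encode core proteins of the pre-mRNA splicing machinery and the heterogeneous nuclear ribonucleoproteins (hnRNPs), and open chromatin was mapped around them in mouse embryonic stem cells. They were taken by symbol, as autosomal protein-coding genes of the RefSeq table of GRCm38.p6 whose names begin with Srsf, Snrp, Sf3a, Sf3b, Hnrnp or Prpf, without Snrpn. This gave 64 of 20558 autosomal protein-coding genes, in 5 groups of 11 SR genes, 11 snRNP genes, 9 SF3 genes, 20 hnRNP genes and 13 Prpf genes. One member, Hnrnpa1l2-ps2, is listed as protein-coding but carries a pseudogene symbol.

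ATAC-seq, in which the transposase Tn5 inserts adapters into accessible DNA, was run on 8 samples of RHKI, an E14Tg2a-derived embryonic stem cell line with the genotype HA-Rnaseh1 knock-in. All samples were grown in 2i/LIF medium, which contains LIF, 2% FBS and the inhibitors CHIR-99021 and PD0325901. Doxycycline at 500 ng/ml for 48 h was given to the 4 Dox samples and withheld from the 4 control samples. The cells are described as inducible for Rnaseh1, whose product removes the RNA strand of R-loops. RHKI is 1 line, and the labels do not say whether the replicates were separate cultures. The deposited peaks form 1 list of positions for all samples, so no value below separates Dox from control, none has a replicate error and the depth behind a peak is unknown. Shares are therefore set beside the same share over all autosomal protein-coding genes, with no test. As a check of the cell type, all 6 naive stem cell markers examined (Pou5f1, Nanog, Sox2, Klf2, Tfcp2l1 and Tdgf1) had a peak at a gene end. Of 9 markers of liver, pancreas, heart, skin and fibroblasts, 2 had one (Ttr and Krt14), and Myh6 had a peak inside the gene. Among all autosomal protein-coding genes 63.4% had a peak at a gene end, so the check is coarse.

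Splicing removes introns in a series of assemblies on the pre-mRNA. Small nuclear ribonucleoproteins (snRNPs) recognise the splice sites, the SF3 complex holds the branch site within the U2 snRNP, and the Prpf proteins act largely in and around the tri-snRNP and the catalytic steps. SR proteins bind exonic enhancers and mostly favour exon inclusion, while hnRNPs coat nascent RNA and often oppose it, so the balance of both sets alternative splicing. Most of these genes are expressed in nearly every cell.

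The open regions at the starts of these genes are shown first as sequence, since the positions below refer to them. In the first and second sets each run is the part of a listed peak that lies upstream of the annotated start. All runs are read 5′ to 3′ on the strand of the gene, from the RefSeq promoter table of GRCm38.p6. That table gives 250 bases before and 50 after a start and holds 56 of the 64 members. Capitals mark exact matches, on either strand, to the letters searched for 4 motifs. For the binding motif of the ETS family of transcription factors these were CCGGAAG. For the box bound by the factor NF-Y they were CCAAT. For the GC box of the SP and KLF families they were GGGCGG. For the cyclic AMP response element they were TGACGTCA, which is its own reverse complement. Matches on the opposite strand appear as the reverse complement of these letters. The first set shows SF3, snRNP and SR promoters, chosen because ETS or SP/KLF letters fall inside the peak.
Sf3a3, chr4:124714646-124714831, plus strand: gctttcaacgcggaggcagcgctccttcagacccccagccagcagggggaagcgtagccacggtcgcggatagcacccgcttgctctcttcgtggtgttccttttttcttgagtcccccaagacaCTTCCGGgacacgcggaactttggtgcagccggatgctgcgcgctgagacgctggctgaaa
Sf3b6, chr12:4817385-4817554, plus strand: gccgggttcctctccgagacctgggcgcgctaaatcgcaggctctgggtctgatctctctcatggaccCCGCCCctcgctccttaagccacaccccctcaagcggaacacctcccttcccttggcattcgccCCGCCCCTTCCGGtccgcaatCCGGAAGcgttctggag
Snrpg, chr6:86371382-86371539, plus strand: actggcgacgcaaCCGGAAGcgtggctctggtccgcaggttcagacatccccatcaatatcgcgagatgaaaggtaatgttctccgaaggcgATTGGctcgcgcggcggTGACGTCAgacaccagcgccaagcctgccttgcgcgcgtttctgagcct
Srsf6, chr2:162931421-162931507, plus strand: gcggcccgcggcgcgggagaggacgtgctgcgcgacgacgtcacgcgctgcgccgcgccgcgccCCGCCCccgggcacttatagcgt

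The second set shows hnRNP and Prpf promoters in which CCAAT or ETS letters fall inside the peak.
Hnrnpab, chr11:51606882-51607004, minus strand: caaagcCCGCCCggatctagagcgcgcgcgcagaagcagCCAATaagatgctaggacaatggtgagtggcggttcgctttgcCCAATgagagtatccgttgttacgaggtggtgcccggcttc
Hnrnpf, chr6:117900241-117900339, plus strand: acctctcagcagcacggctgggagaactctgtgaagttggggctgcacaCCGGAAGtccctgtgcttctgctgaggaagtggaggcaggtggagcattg
Prpf8, chr11:75486657-75486776, plus strand: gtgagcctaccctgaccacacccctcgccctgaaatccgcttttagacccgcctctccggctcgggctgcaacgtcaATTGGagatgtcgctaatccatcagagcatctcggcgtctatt
Prpf19, chr19:10895108-10895230, plus strand: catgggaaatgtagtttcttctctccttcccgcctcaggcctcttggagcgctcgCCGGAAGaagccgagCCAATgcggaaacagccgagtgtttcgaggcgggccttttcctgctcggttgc
Prpf38b, chr3:108911730-108911863, minus strand: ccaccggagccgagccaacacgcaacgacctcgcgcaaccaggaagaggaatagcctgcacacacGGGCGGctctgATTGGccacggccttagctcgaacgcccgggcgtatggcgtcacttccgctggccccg

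The third set gives 30 bases around a CCAAT inside the peak of 3 hnRNP genes. Their annotated starts lie inside the outer bounds of the gene, as is also common among SR genes. The runs of Hnrnpa1 and Hnrnpul1 reach a few bases past the edge of the peak.
Hnrnpa1, chr15:103240306-103240335, plus strand: cgtcttcacgggCCAATggtgggagggaat
Hnrnpk, chr13:58402154-58402183, minus strand: aagcctgggcagCCAATggggcgcgacgct
Hnrnpul1, chr7:25754808-25754837, minus strand: cccatgcgctgaCCAATtgagactcgtttt

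Of the 64 genes, 60 had a peak overlapping 1 kb on either side of an outer gene end (93.8%), where 63.4% of all autosomal protein-coding genes had one. All 11 SR, 11 snRNP, 9 SF3 and 13 Prpf genes were among them. The 4 without were hnRNP genes, so that 16 of 20 in this group had such a peak (80.0%). The groups of other ubiquitous machines lay in the same range, with 88.4% of 95 ribosomal protein genes, 95.8% of 48 proteasome and chaperonin genes and 98.2% of 56 RNA polymerase and Mediator genes. No test was made between these families.

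**Figure D1:**
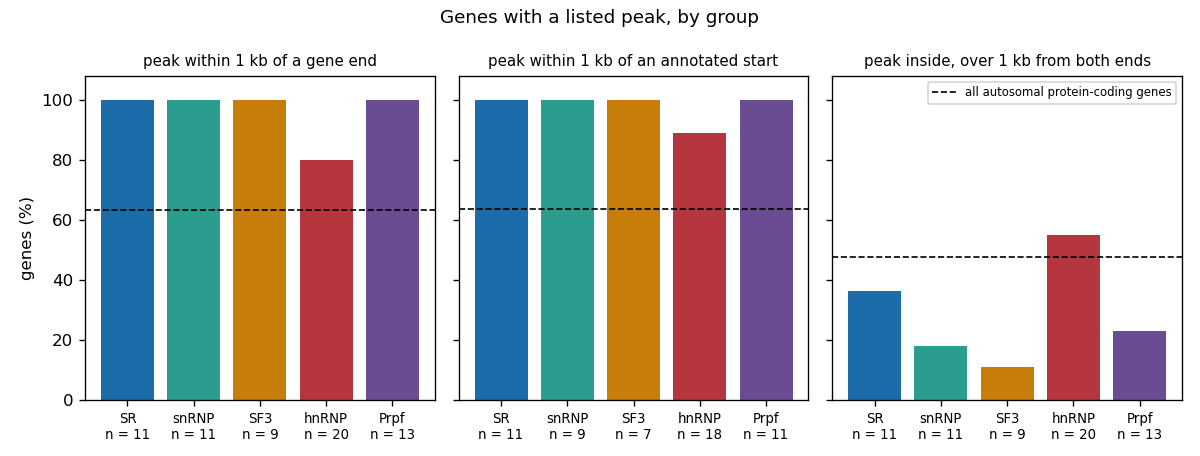
Percent of genes in each group with a peak within 1 kb of a gene end (left), within 1 kb of an annotated start (middle) and inside the gene over 1 kb from both ends (right); dashed lines give all autosomal protein-coding genes. At gene ends the hnRNP bar (80.0%) lies below the other groups (each 100%), and inside genes it is the bar above the dashed line (55.0% against 47.6%).

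The gene table gives outer bounds over all transcript models, which need not be where most transcripts begin. The promoter table was therefore used for the 56 members it holds, with 1 or more annotated starts per gene. A peak lay within 1 kb of an annotated start in 54 of 56 (96.4%), against 63.8% of 16457 genes. With the outer start in place of the annotated one this was 51 of 56 (91.1%, against 59.9%). The 300 bp promoter window itself overlapped a peak in 49 of 56 (87.5%, against 55.3%). In 33 of 56 a peak lay over the start base itself (58.9%, against 35.8%). Where a peak was within 1 kb, the centre of the nearest one was upstream of the start in 42 of 54 genes (77.8%, against 66.7%), at a median of -61.0 bp with quartiles of -109 and -8.75 bp (all genes: -37.0, -102 and 29.0 bp). By group the median centre lay at -39.0 bp in SR, -21.0 bp in snRNP, -123 bp in SF3, -64.0 bp in hnRNP and -58.0 bp in Prpf genes. The centre was upstream in 79.4% of ribosomal protein, 64.9% of proteasome and chaperonin and 82.6% of RNA polymerase and Mediator genes with such a peak.

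**Figure D2:**
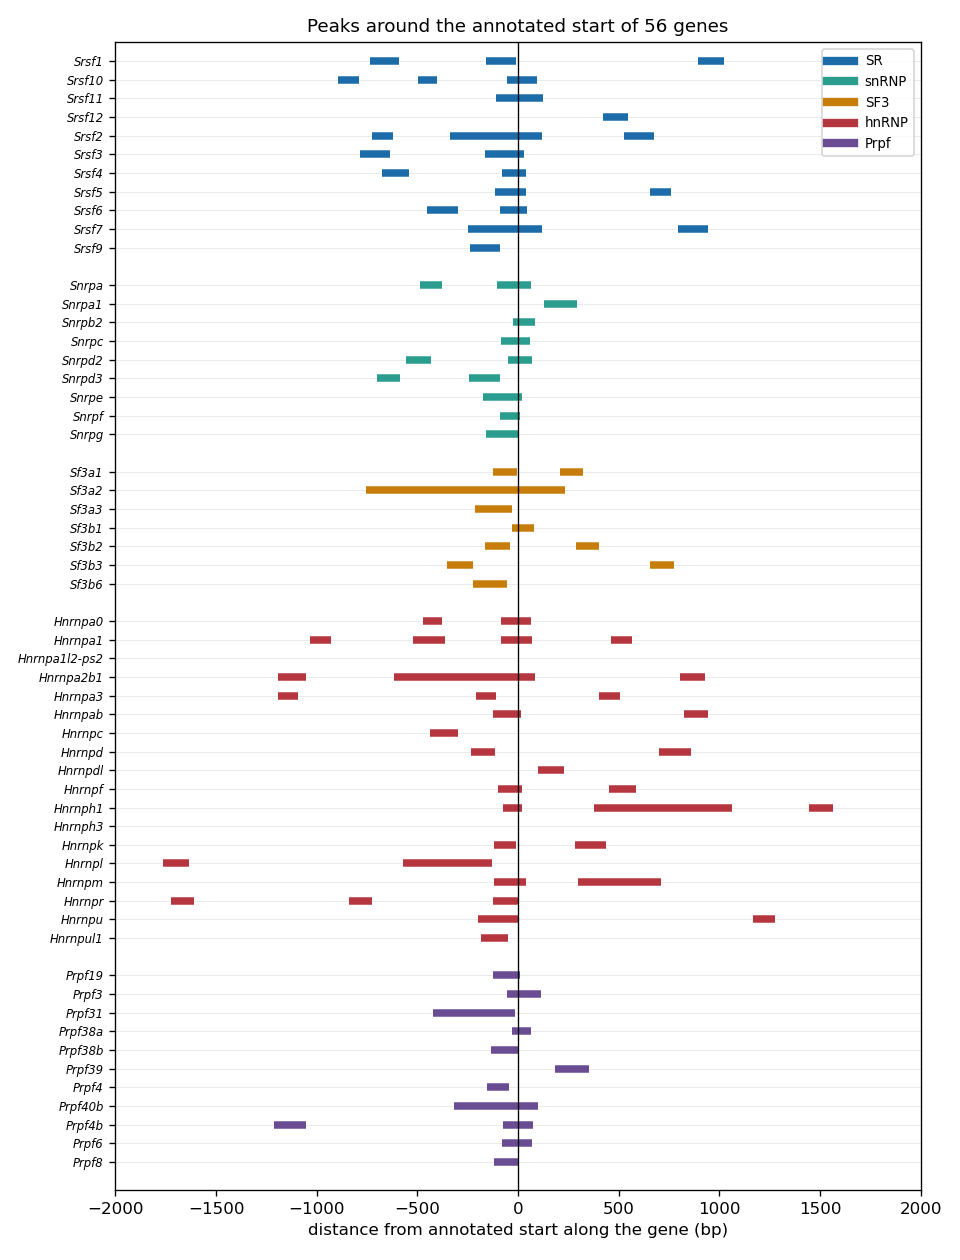
Listed peaks (bars drawn to their width) around the annotated start nearest to a peak, for 56 genes coloured by group; the horizontal axis is the distance from the start in bp along the direction of the gene. Most genes have a bar on or just left of 0, Sf3a2 has the longest bar (989 bp), and Hnrnph3 and Hnrnpa1l2-ps2 have none.

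Of the 4 hnRNP genes without a peak at an outer end, 2 had peaks at their annotated starts. Hnrnph1 encodes a regulator that binds runs of G. Its outer bounds are 50375257 to 50386528 on chromosome 11, and the nearest peak to an outer end lay 1661 bp away. The promoter table places 5 starts between 50376990 and 50378291, the first of them 1733 bp inside the outer bound. Peaks of 92, 682 and 121 bp lay there, at 50376918 to 50377009, 50377370 to 50378051 and 50378434 to 50378554, and 3 of the 5 starts lay under a peak. The peak of 682 bp was wider than nearly all others, since 0.163% of autosomal peaks were at least as wide.

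Hnrnpk, which encodes a poly(C)-binding protein, showed the same arrangement. Its annotated start at 58402117 on chromosome 13 lies 1226 bp inside the outer bounds (58391132 to 58403343). A peak of 112 bp at 58402128 to 58402239 began 11 bp upstream of that start, and a second of 155 bp at 58401681 to 58401835 lay downstream of it. Both peaks also lie within 1 kb of an end of the neighbouring gene Rmi1. At the 1 kb limit itself, the nearest edge lay 1104 bp from an outer end at Hnrnpk, just outside, and 875 bp at Hnrnpu and 870 bp at Hnrnpul1, just inside.

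The other members without a peak at an outer end had none at an annotated start either. Hnrnph3, a paralog of Hnrnph1 (chromosome 10, 63014664 to 63023980), had its nearest peak 20460 bp from an outer end and 25387 bp from the annotated start. Its promoter had a GC content of 73.0% and a CpG ratio of 0.803, within the range of the other members, and 5 distal peaks lay within 50 kb. Hnrnpa1l2-ps2 (chromosome 15, 22713820 to 22714984) had its nearest peak 46447 bp away and the lowest CpG ratio of the members, 0.208. A missing entry does not show closed chromatin, because the threshold for a peak and the treatment of multimapping reads are unknown.

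Annotated starts lay over 250 bp inside the outer bounds in 13 of 56 members (23.2%, against 17.6% of all genes). They were 7 of 18 hnRNP genes (38.9%), 4 of 11 SR genes (36.4%), 1 of 9 snRNP, 1 of 11 Prpf and 0 of 7 SF3 genes. At Hnrnpul1 the peak at an outer end lay at the finish of the gene, while a peak of 131 bp (chromosome 7, 25754812 to 25754942) lay 53 bp from the annotated start, 1509 bp inside the bounds. At Hnrnpl, a CA-repeat binding regulator, the annotated start lies 2344 bp inside. A peak of 444 bp (chromosome 7, 28810319 to 28810762) ended 128 bp before it. At Hnrnpu, which encodes a large nuclear scaffold protein, the annotated start lies 1076 bp inside and a peak of 207 bp (chromosome 1, 178337810 to 178338016) lay over it. Counting outer ends and annotated starts together, 18 of 20 hnRNP genes and 62 of all 64 members had a peak (96.9%), against 67.1% of all autosomal protein-coding genes.

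Some members had several annotated starts, each with its own open region. Hnrnpf, another relative of Hnrnph1, has 4 starts along chromosome 6 at 117900340, 117906782, 117907804 and 117917294, and a peak lay over each of them. The peaks over 117906782 and 117907804, of 489 and 217 bp, also lie at an end of 4933440N22Rik. The peak centres lay at -40, 131, -8 and 7 bp from these starts. Srsf11, an SR-related gene, has starts at 158036606 and 158031748 on chromosome 3, and both lay under peaks, of 107 and 234 bp. Hnrnpr and Snrpa each had a peak over 1 of their 2 starts and within 68 and 24 bp of the other. By contrast, the inner starts of Prpf19 and Prpf40b were 3406 and 7943 bp from the nearest peak, while their first starts lay under one.

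SR genes often had more than 1 peak at an end. Of the 11, 8 had at least 2 (72.7%), as did 10 of 16 hnRNP genes with a peak (62.5%), 4 of 9 SF3 (44.4%), 4 of 11 snRNP (36.4%) and 4 of 13 Prpf genes (30.8%). Over all members this was 30 of 60 (50.0%), against 39.3% of all genes with a peak at an end. Srsf1, whose product was first known for its effect on splice site choice, had peaks of 146 and 148 bp, centred 211 and 789 bp inside the outer start. The second of these ended 11 bp upstream of its annotated start. Srsf3 (chromosome 17, 29032660 to 29043372), which encodes the smallest classical SR protein, had peaks of 191 bp over its start and 149 bp centred 709 bp upstream. Srsf10 had 3 peaks of 107, 97 and 150 bp around its start. The highest counts in the set were 4 peaks, at Hnrnpa1 and Hnrnpa3.

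A peak at both ends was found in 6 of 40 members over 10 kb long (15.0%, against 9.56% of all genes of that length). They were Srsf4, Sf3b2, Sf3b6, Hnrnpa3, Prpf40b and Prpf8. The peak at the finish can belong to a neighbour. At Prpf8, which encodes the large protein at the catalytic centre of the spliceosome, the start had a peak of 122 bp and the finish a peak of 531 bp (chromosome 11, 75510402 to 75510932). The second peak also lay at an end of Rilp, whose annotated start is 23317 bp from that of Prpf8 on the same strand. The finish of Sf3b2 likewise shared a peak of 202 bp with Pacs1.

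Peaks shared with a neighbouring gene were common. Of the 60 members with a peak at an end, 24 had one that also lay at an end of another protein-coding gene (40.0%, against 26.6% of all genes with a peak at an end). By group these were 5 of 9 SF3, 8 of 16 hnRNP, 5 of 13 Prpf, 3 of 11 SR and 3 of 11 snRNP genes. The share was 29.8% in ribosomal protein, 34.8% in proteasome and chaperonin and 32.7% in RNA polymerase and Mediator genes, with no test between families. In 11 pairs of a member and a neighbour the annotated starts pointed away from each other, 21 to 772 bp apart. Examples are Snrpa with BC024978, 21 bp apart, Prpf31 with Tfpt, 56 bp, Sf3a1 with Ccdc157, 61 bp, Snrpd3 with Gucd1, 70 bp, and Srsf11 with Lrrc40, 76 bp. Hnrnpdl and Enoph1 lie 772 bp apart. The annotated starts of Hnrnpd and 4930524J08Rik pass each other by 3 bp, and Hnrnpc shared a peak with Rpgrip1, whose start is 6882 bp away. In 6 further pairs the strand of a gene was not in the table. Arrangements of pairs were not counted over all genes, so these numbers of pairs show no trait of the members.

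The pairs of hnRNP and heterochromatin protein 1 genes are a known case, since a human HNRNPA2B1 and CBX3 fragment is used as a ubiquitous chromatin opening element in expression vectors. Hnrnpa2b1 and Cbx3 have annotated starts 722 bp apart, and a peak of 697 bp (chromosome 6, 51469763 to 51470459) lay over the start of Hnrnpa2b1, with a second of 141 bp beside it. The first was the widest peak at an end of any hnRNP gene, and 0.142% of autosomal peaks were at least as wide. Hnrnpa1 and Cbx5 have starts 545 bp apart on chromosome 15. There the list held 4 separate peaks of 102, 162, 155 and 106 bp between 103239365 and 103240963, all within 1 kb of an end of both genes. In the promoter of Hnrnpa1, CCAAT stood at -79, -49 and -19 bp from the annotated start on the strand of the gene, all under a peak, and at -191 bp outside any peak.

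Peak widths of the members were close to those of all genes. The widest gene-end peak per gene had a median of 156 bp (quartiles 130 and 176 bp, 60 genes), against 147 bp (124 and 190 bp) over all genes with such a peak. It was over 200 bp in 12 of 60 members, near the 22.0% of all genes. Group medians ran from 132 bp in SF3 to 168 bp in Prpf genes. No snRNP gene exceeded 192 bp, the width at Snrpe, which encodes a protein of the Sm ring, followed by 173 bp at Snrpd1 and 166 bp at Snrpa.

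The widest gene-end peak was over 300 bp in 10 of 60 members (16.7%), near the 15.5% of all genes with a gene-end peak. The widest, of 989 bp, lay at Sf3a2 (chromosome 10, 80797982 to 80798970), a subunit of the SF3A complex of the U2 snRNP, and 0.0119% of autosomal peaks were at least as wide. It covers the starts of Sf3a2 and Plekhj1, which lie 109 bp apart and point away from each other. Sf3b1, the largest SF3B subunit and a frequent target of mutation in blood cancers, had by contrast a single peak of 106 bp over its start (chromosome 1, 55027401 to 55027506). Among Prpf genes, peaks of 531, 464, 419 and 409 bp lay at Prpf8, Prpf18, Prpf40b and Prpf31, and the other 9 genes had none over 200 bp. Among SR genes, Srsf2 had a peak of 456 bp shared with Mfsd11 and Srsf7 one of 369 bp over its start.

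**Figure D3:**
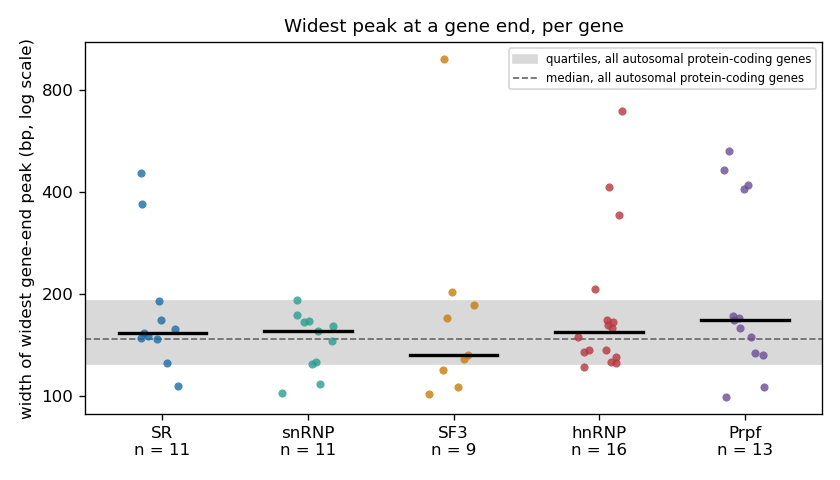
Width of the widest peak at a gene end for each of 60 genes by group, in bp on a log axis; black bars are group medians, the grey band and dashed line give the quartiles and median of all autosomal protein-coding genes with such a peak. Most points lie in the grey band, with Sf3a2 (989 bp) and Hnrnpa2b1 (697 bp) at the top.

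Promoters of the members were rich in CpG. The ratio of observed to expected CpG in the 300 bp window had a median of 0.940 (quartiles 0.857 and 1.08, 56 genes), against 0.607 (0.236 and 0.840) over all 16457 genes, and 51 of 56 members (91.1%) had a ratio of 0.75 or more, against 35.9% of all genes. Among all genes in that class, 5613 of 5904 (95.1%) had a peak within 1 kb of a start, and among the members 50 of 51 had one (98.0%). Below a ratio of 0.25, 11.2% of all genes had a peak. The exception among the 51 was Hnrnph3. Snrpa1 and Hnrnpf, with ratios of 0.365 and 0.384, had peaks in a class where 47.3% of all genes did. The ratio of Hnrnpf is that of the first of its 4 starts.

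**Figure D4:**
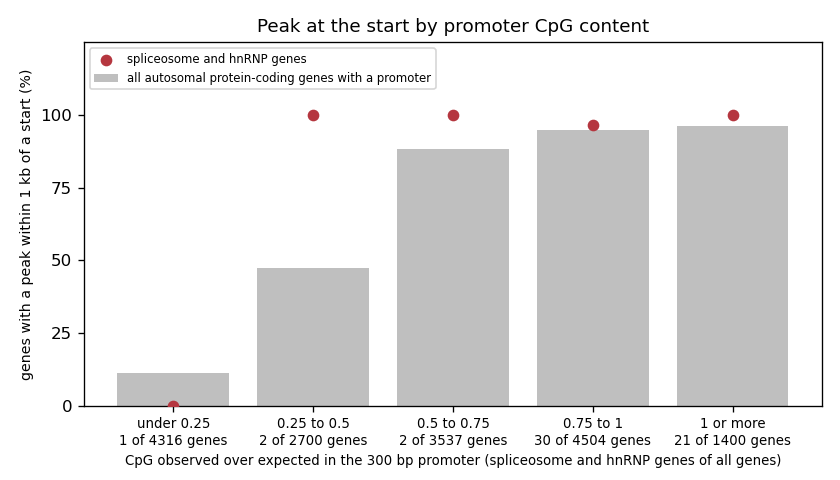
Percent of genes with a peak within 1 kb of an annotated start, by the CpG ratio of the promoter; grey bars are all autosomal protein-coding genes with a promoter and red points the members, with the number of members and of all genes in each class under the axis. The 2 highest classes hold 30 and 21 of the 56 members, and there the bars reach 94.7% and 96.1%.

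The letters of 8 motifs were searched on both strands of the same window, with 1 promoter per gene. ETS letters (CCGGAAG) stood in 18 of 56 members (32.1%), against 12.4% of all promoters and 17.8% of the promoters with a peak within 1 kb. Of the 22 matches, 19 lay wholly under a peak. They stood in 6 of 7 SF3, 4 of 9 snRNP, 3 of 11 SR, 3 of 11 Prpf and 2 of 18 hnRNP promoters. In Sf3b6, which encodes the subunit that contacts the branch point adenosine, ETS letters began at -85 and -70 bp, the first directly after an SP/KLF match that begins at -91 bp, as the sequence above shows. CCAAT stood in 26 of 56 members (46.4%, against 38.8% of all and 38.9% of those with a peak), with 11 of 18 hnRNP promoters among them (61.1%), 7 of which held it more than once. GGGCGG stood in 36 of 56 (64.3%), against 48.4% of all promoters but 67.7% of those with a peak, and in 10 of 11 SR promoters. Wholly under a peak lay 28 of 48 matches of CCAAT and 39 of 72 of GGGCGG, with 6 of 25 of the latter in hnRNP promoters. Matches under a peak were not counted over all promoters for any motif, so these counts show no trait of the members. All are matches of letters and not measured binding, and no test was made of the shares. The letters CCGGAAG and GGGCGG each hold a CpG. The median CpG ratio was 0.940 in members, 0.607 in all promoters and 0.770 in those with a peak. Median GC content was 69.0% in SR promoters, 57.0% in all and 61.7% in those with a peak. The part of base content in the motif shares was not tested.

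The other motifs were rare among the members. The TATA letters (TATAAA) stood in 6 of 56 (10.7%, against 13.2% of all promoters and 6.07% of those with a peak), among them Srsf2 at -29 and Srsf3 at -18 bp. The E-box (CACGTG) stood in 7 (12.5%, against 8.01% and 10.3%) and the YY1 motif in Prpf38b and Sf3a1 (3.57%, against 1.32% and 2.04%). The NRF1 motif stood at the inner start of Srsf11 (1.79%, against 1.40% and 2.08%) and TGACGTCA in Snrpg (1.79%, against 2.44% and 3.41%).

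Inside the genes, over 1 kb from both outer ends, 21 of 64 members had a peak (32.8%, against 47.6% of all genes). These genes are short, with a median length of 13100 bp against 17600 bp, and per length they had 3.33 peaks per 100 kb of gene interior against 3.44. Among the genes over 10 kb, 15 of 40 members had an inside peak (37.5%), against 66.2% of all genes of that length. By group these were 9 of 13 hnRNP genes (69.2%, near all genes), 2 of 5 SR, 0 of 4 snRNP, 1 of 6 SF3 and 3 of 12 Prpf genes. The longest member spans 56737 bp and the longest of all genes 2270506 bp, and the part of gene length in these shares was not tested. The hnRNP genes had 6.56 inside peaks per 100 kb, SR genes 3.43, snRNP genes 2.45, Prpf genes 1.60 and SF3 genes 0.689. Of the 20 inside peaks of hnRNP genes, 13 had their centre within 1 kb of an annotated start, a share not counted over all genes. Hnrnpf had 5 of the 20 and Hnrnph1 had 3.

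Over all groups, 16 of the 32 inside peaks lay within 1 kb of an annotated start, 14 lay farther from one and 2 lay in members with none in the table. Inside peaks of all genes were not sorted in this way, so these counts show no trait of the members. Hnrnpm held a peak of 461 bp deep in the gene (chromosome 17, 33649733 to 33650193), 35495 bp from its start. Srsf3 held 1 of 120 bp (29039498 to 29039617), 6897 bp from its start. Sf3b1, with 42333 bp, held 1 of 95 bp. Prpf6 and Prpf19, which encode a tri-snRNP bridging protein and the ubiquitin ligase of the Prp19 complex, held 2 each. The table lists no exons, so whether these peaks are exonic or intronic was not determined here.

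Distal peaks were those centred more than 1 kb away from all ends of protein-coding genes, up to 50 kb outward or inward from a gene's bounds. The members had a median of 6 (quartiles 3.00 and 8.25), against 5 (2.00 and 8.00) over all genes, with the same median of 3 protein-coding neighbours within 50 kb. A single member had none (1.56%, against 13.1% of all genes), Prpf4b, which encodes a splicing kinase. Medians were 7 in SR and hnRNP genes, 5 in SF3 and 4 in snRNP and Prpf genes, and the ranges overlapped widely. Of 397 distinct distal peaks, 2 were counted for more than 1 member, the neighbours Hnrnpd and Hnrnpdl.

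The members with the most distal peaks were Srsf3 with 19 and Hnrnpu with 17, which is past the upper quartile of all genes. Srsf12 had 14 and Hnrnpf 12. Of the 19 peaks around Srsf3, 7 lay before the gene, 1 inside it and 11 beyond it, none wider than 164 bp. In the other groups the highest counts were 11 at Snrpd2, 8 at Snrpa and Snrpf, 9 at Sf3a2 and Sf3b3, 9 at Prpf8 and 8 at Prpf31. Which gene a distal peak serves was not tested.

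**Figure D5:**
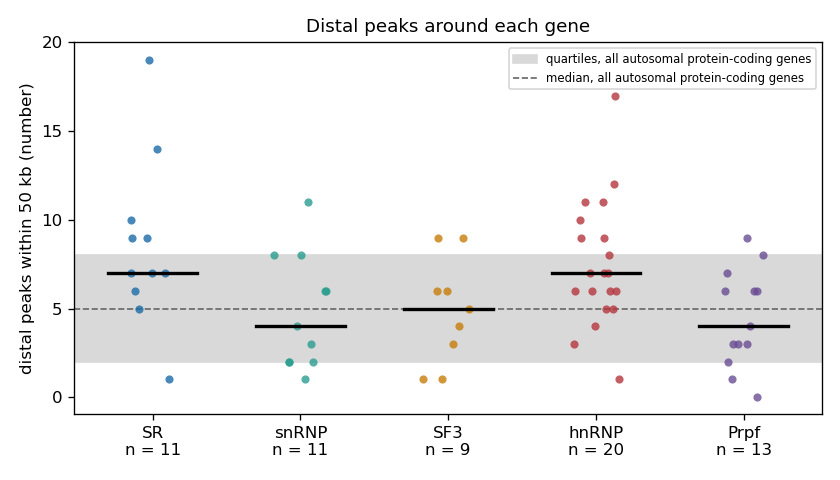
Number of distal peaks within 50 kb of each of 64 genes by group; black bars are group medians, and the grey band and dashed line give the quartiles and median of all autosomal protein-coding genes. Srsf3 (19) and Hnrnpu (17) lie at the top, and Prpf4b at 0.

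Other splicing genes, outside the symbols used here, were listed by role. Of 116 such genes, 105 had a peak at an outer end (90.5%, against 63.4% of all autosomal protein-coding genes). All early complex factors (14), helicases (8), tri-snRNP and B complex genes (12), LSm ring genes (8) and snRNP genes named Snrnp (7) had one. Of these, the early complex genes Luc7l2 and Rbm25 had none within 1 kb of an annotated start, with the nearest at 3565 and 3372 bp. Of the 17 Prp19-related and step factors, Slu7 and Ctnnbl1 had none, with nearest peaks at 7390 and 8421 bp. Of 17 SR kinases and SR-related genes, Clk3, Sfswap and Scaf4 had none, but peaks lay over the annotated starts of Clk3 and Scaf4.

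RNA-binding regulators outside the Hnrnp symbols gave a peak at an outer end in 27 of 33 genes (81.8%, against 63.4% of all autosomal protein-coding genes). Those without were Ptbp2, Mbnl1, Esrp1, Celf2, Rbfox1 and Rbfox3. Genes known mainly for neurons fell on both sides, since Nova1, Elavl2, Elavl3, Elavl4 and Celf4 had such a peak. At Ptbp2, Mbnl1 and Celf2 a peak lay within 1 kb of an annotated start. At Rbfox1 and Rbfox3, splicing regulators of neurons, the nearest peak lay 2678 and 16014 bp from an annotated start, while at Elavl2, Elavl3 and Elavl4 a peak lay over one and at Nova1 the distance was 126 bp. From an outer end, the nearest peak of Rbfox3 lay 1191 bp away, just outside the limit. That of Esrp1, which has no start in the promoter table, lay at 1371 bp. Rbfox1 and Rbfox3, of 1527688 and 421838 bp, held 22 and 16 peaks inside the gene.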

How the data were processed

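The tools named in the labels are, per the submitters' processing notes, deepTools 3.5.1, HOMER 4.11, Bowtie2 2.5.0, SAMtools 1.16.1, Trimmomatic 0.39 and Picard 2.10.9, with the build GRCm38. Which of them called the peaks, at what threshold and on which samples is unknown here. The authors deposited 76996 peaks as positions in 3 columns, with 0 columns of values per sample, so the depth per sample is unknown and Dox was not compared with control.

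Genes and promoters came from RefSeq tables of GRCm38.p6, without scaffold and patch rows. Peaks were assigned with an overlap of 1 bp, or by centre for inside and distal peaks. Of several annotated starts, the one nearest to a peak was used, and of equally near ones the one at the lower position. For genes such as Hnrnpf and Srsf11, the CpG ratio and motifs are therefore those of 1 start among several under a peak. The members and lists were chosen with earlier results of these data known, and the 7 Snrnp genes were added last. Named genes are those without a peak, those over 10 kb with both ends, and the extremes of each group. Others, such as Hnrnpl, Srsf1, Sf3b1 and the Cbx pairs, were picked with their values known. Other windows, widths and gene sets were tried as alternatives. The counting was tested on simulated data. Python 3.11.15, NumPy 2.4.6, SciPy 1.17.1, pandas 2.3.3 and matplotlib 3.10.9 were used.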

Additional observations from a re-analysis of the deposited data

How the results depend on the processing

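The share of members with a peak at a gene end stayed above that of all genes under each alternative tried. It was 68.8% with peaks wider than the median (all genes 42.7%), which left 20 members without a peak, and 100% without the hnRNP genes. With a 500 bp window it was 85.9% (58.0%) and 9 members had none, 7 of which have an annotated start over 250 bp inside the outer bounds. The share with an inside peak was 46.9% at over 500 bp from both ends (all genes 52.5%), 10.9% at over 5 kb (34.6%) and 17.2% with peaks wider than the median (33.8%), below all genes each time. The median number of distal peaks was 2.00 within 20 kb (all genes 2.00), 13.0 within 100 kb (9), 2.00 with peaks wider than the median (2.00) and 2.00 outside every protein-coding gene (1.00). The changes with distance follow from the size of the window, and the cause of the others was not tested. The width medians ran from 142 to 165 bp. Counting ends or annotated starts together, and leaving out Hnrnpa1l2-ps2 (95.2%), were chosen after seeing the data. Depth and threshold limit every missing peak. No paired analysis was possible because the list holds no value per sample.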
